A study of Mus musculus with 20 samples.

Results

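Expression of 8 genes of brown fat heat production was followed in mammary glands of TGFα transgenic mice given tamoxifen or placebo. The genes were Ucp1, Cidea, Cox7a1, Cox8b, Ppargc1a, Dio2, Elovl3 and Prdm16, taken by name as known genes of brown fat. The rule held no measured value, but the set was chosen with earlier results of these data known. They were found through the array platform's gene symbols, which paired 17 probe sets with the 8 genes among 18194 genes on the array. Where a gene had several probe sets, the probe set with the highest mean over all 20 arrays stood for it.

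Each array held RNA from a single number 4 mammary gland, free of tumor when it was removed. All 20 mice were FVB/N females heterozygous for the same transgene, line 1372-1 TgN(Nrl-tgfalpha)29EPS, so every group carried it and none was wild type. The Nrl promoter directs transforming growth factor alpha, a ligand of the epidermal growth factor receptor, to the mammary epithelium and not to fat. At 8.5 weeks of age the mice received an implant that released 5 mg of tamoxifen, a selective oestrogen receptor modulator, or held its carrier without drug (placebo). The gland was taken at 20.5 to 21 weeks, 4 weeks after treatment ended, and tumors of the mammary gland were recorded over up to 2 years. Of the 10 placebo mice, 7 later had a tumor (placebo 1, 2, 4, 7, 8, 9 and 10) and 3 did not (placebo 3, 5 and 6). Of the 10 tamoxifen mice, 3 later had a tumor (tamoxifen 1, 2 and 10) and 7 did not (tamoxifen 3 to 9). Values are deposited RMA expression on the log2 scale, so a difference of 1 is a doubling of signal, and the number of arrays limits the precision.

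Brown adipocytes burn fuel for heat. Noradrenaline raises cyclic AMP in them, which releases fatty acids and switches on Ppargc1a, Dio2 and Ucp1, and UCP1 then lets protons back across the inner mitochondrial membrane without making ATP. The mouse number 4 gland lies in the inguinal fat pad, where heat-producing beige adipocytes can form among white ones. In a whole gland, fewer thermogenic cells and less of the RNA per cell cannot be told apart.

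RefSeq promoter windows were available for 6 of the 8 genes; Cidea and Elovl3 had none and are named only. The windows of the genes that the results below turn on are shown for the 250 bases before the RefSeq start (build GRCm38.p6), 5′ to 3′ on the gene's strand. Capitals mark matches on either strand to TGACGTCA, the cyclic AMP response element, or to its core TGACG.
Ucp1, chr8:83290098-83290347, plus strand: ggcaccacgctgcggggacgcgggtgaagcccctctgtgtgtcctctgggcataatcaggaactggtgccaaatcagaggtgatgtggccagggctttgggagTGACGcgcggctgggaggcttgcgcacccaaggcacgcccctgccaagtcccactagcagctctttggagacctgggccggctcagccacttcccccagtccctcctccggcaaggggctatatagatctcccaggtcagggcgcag
Dio2, chr12:90739039-90739288, minus strand: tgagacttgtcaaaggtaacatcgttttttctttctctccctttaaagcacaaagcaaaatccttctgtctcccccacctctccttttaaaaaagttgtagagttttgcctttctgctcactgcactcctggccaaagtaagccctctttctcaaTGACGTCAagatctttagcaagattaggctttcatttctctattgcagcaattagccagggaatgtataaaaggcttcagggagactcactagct
Ppargc1a, chr5:51567726-51567975, minus strand: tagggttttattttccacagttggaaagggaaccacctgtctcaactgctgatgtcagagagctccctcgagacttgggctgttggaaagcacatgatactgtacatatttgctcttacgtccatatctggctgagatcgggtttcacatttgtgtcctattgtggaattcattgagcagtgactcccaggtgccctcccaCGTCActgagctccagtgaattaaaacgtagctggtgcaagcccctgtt
Cox7a1, chr7:30183921-30184170, plus strand: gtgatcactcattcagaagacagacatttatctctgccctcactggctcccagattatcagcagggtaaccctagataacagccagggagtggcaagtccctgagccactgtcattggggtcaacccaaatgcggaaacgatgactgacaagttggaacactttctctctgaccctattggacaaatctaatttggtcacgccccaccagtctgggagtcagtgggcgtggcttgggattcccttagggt
Cox8b, chr7:140900447-140900696, minus strand: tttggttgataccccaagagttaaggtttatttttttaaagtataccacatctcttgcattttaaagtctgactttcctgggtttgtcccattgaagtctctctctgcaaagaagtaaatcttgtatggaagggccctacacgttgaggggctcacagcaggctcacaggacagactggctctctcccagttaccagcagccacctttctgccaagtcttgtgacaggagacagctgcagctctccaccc
Dio2 held the whole element, 88 bases before the start, and its letters contain TGACG on both strands. Ucp1 held TGACG 143 bases before the start, and Ppargc1a held it on the opposite strand, written CGTCA, 45 bases before the start. The windows of Cox7a1, Cox8b and Prdm16 held neither. Among 32851 RefSeq windows of this length, 1.55% held TGACGTCA and 17.8% held TGACG on either strand. None of the 6 windows held AAGGTCA on either strand, a nuclear receptor motif found in 4.08% of all windows. These are matches of letters, and no binding was measured. The start used for Ppargc1a lies inside the longer gene that RefSeq annotates.

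Epithelial markers were above the overall median of 6.85 in every gland for 11 of 12 genes, as were 16 of 16 adipocyte markers. On the first principal component (31.9% of the variance) placebo 8 and 7, both with later tumors, stood apart, at distances from the centre of 41.1 and 30.9, and placebo 9 followed at 14.6, near the next glands. A gene was tested when it exceeded 6.85 in at least 3 glands, which kept 12499 genes and all 8 thermogenic genes. Of the 8, 6 were above 6.85 in all 20 glands, Dio2 in 19 and Prdm16 in 17.

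The thermogenic genes varied widely between glands. Their SD over the 20 glands ran from 0.32 for Prdm16 to 1.01 for Dio2, against a median SD of 0.14 over all genes tested. Dio2, Elovl3, Ppargc1a, Cox7a1 and Ucp1 each varied more than at least 99.1% of tested genes. The span from the lowest to the highest gland was 17.6-fold for Dio2, 15.4-fold for Elovl3, 10.8-fold for Ucp1, 10.2-fold for Cox7a1 and 7.35-fold for Ppargc1a. It was 3.34-fold for Cox8b, 2.48-fold for Cidea and 2.21-fold for Prdm16.

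Ucp1 encodes the uncoupling protein of brown fat and lies on chromosome 8 at 83290348 to 83298456 (GRCm38.p6, as for the other genes below). In placebo glands with later tumors it ran from 10.43 (placebo 2) through a median of 12.89 to 13.86 (placebo 10), with a mean of 12.63 ± 1.06 (SD, n = 7). Placebo glands without tumors had 13.60, 13.64 and 13.10. The 3 tamoxifen glands with later tumors had 13.31, 12.91 and 13.58, and the 7 without had 11.57 (tamoxifen 6), a median of 13.27 and 13.68 (tamoxifen 8). Placebo 2 and tamoxifen 6 stood well below all other glands, and the other 18 lay between 12.48 and 13.86. The order of group means was placebo without tumor (13.45 ± 0.30, SD, n = 3), tamoxifen with tumor (13.27 ± 0.34, n = 3), tamoxifen without tumor (13.08 ± 0.70, n = 7) and placebo with tumor, and neighbours in that order overlapped.

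Cidea coats lipid droplets and is abundant in brown adipocytes; it lies on chromosome 18 at 67343564 to 67367794. In placebo glands with later tumors Cidea ran from 12.35 (placebo 9) through a median of 12.62 to 13.32 (placebo 10). Placebo glands without tumors had 13.41, 13.66 and 12.89. Tamoxifen glands had 13.31, 13.18 and 13.24 with later tumors, and 12.43 (tamoxifen 6), a median of 13.13 and 13.53 (tamoxifen 8) without. The placebo glands with tumors were the lowest group by mean (12.70 ± 0.32, SD, n = 7), yet placebo 10 reached into every other group. Means in the other groups were 13.32 ± 0.39 (placebo without tumor, n = 3), 13.24 ± 0.06 (tamoxifen with tumor, n = 3) and 13.12 ± 0.34 (tamoxifen without tumor, n = 7), in overlapping order.

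Cox7a1 and Cox8b encode small subunits of cytochrome c oxidase in the forms used by brown fat, heart and skeletal muscle, and both lie on chromosome 7, at 30184171 to 30186030 and at 140898942 to 140900446. Cox7a1 in placebo glands with later tumors had a lowest value of 8.03 (placebo 2), a median of 9.87 and a highest value of 11.06 (placebo 10). Placebo glands without tumors had 10.99, 11.38 and 10.17. The tamoxifen glands had 10.85, 10.43 and 11.06 with later tumors, and 9.40 (tamoxifen 6), a median of 10.80 and 11.35 (tamoxifen 8) without. Group means of Cox7a1 were 10.85 ± 0.62 (placebo without tumor), 10.78 ± 0.32 (tamoxifen with tumor), 10.67 ± 0.61 (tamoxifen without tumor) and 9.80 ± 0.90 (placebo with tumor; SD, n = 3, 3, 7 and 7). The first 3 differed by less than their SD, and 6 of the 7 placebo glands with tumors were below the lowest placebo gland without a tumor.
Cox8b had the same low glands, 11.30 in placebo 2 and 11.75 in tamoxifen 6, and ran up to 13.04 in tamoxifen 8. Its placebo glands with later tumors had a median of 12.11 and reached 12.76 (placebo 10), while those without had 12.78, 13.01 and 12.31. Tamoxifen glands had 12.68, 12.37 and 12.78 with later tumors and a median of 12.61 without. Its group means kept the order of Cox7a1, at 12.70 ± 0.36, 12.61 ± 0.22, 12.55 ± 0.39 and 12.08 ± 0.43 (SD, n = 3, 3, 7 and 7).

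Ppargc1a encodes a coactivator that switches on mitochondrial genes, and Dio2 the deiodinase that makes active thyroid hormone inside the cell. They lie on chromosome 5 at 51454249 to 52115853 and on chromosome 12 at 90724552 to 90739038. Ppargc1a was highest in 2 placebo glands without later tumors, placebo 3 (10.67) and placebo 5 (10.56), and the third, placebo 6, had 8.21. Placebo glands with later tumors ran from 7.83 (placebo 7) through 8.43 to 9.13 (placebo 10). Tamoxifen glands had 8.14, 8.33 and 8.27 with later tumors, and 7.79 (tamoxifen 6), a median of 8.90 and 9.36 (tamoxifen 4) without. Placebo 3 and 5 stood above the other 18 glands by more than 1 on this log2 scale. The group means were 9.81 ± 1.39 (placebo without tumor, SD, n = 3), 8.71 ± 0.64 (tamoxifen without tumor, n = 7), 8.36 ± 0.45 (placebo with tumor, n = 7) and 8.25 ± 0.09 (tamoxifen with tumor, n = 3), and neighbours overlapped.
Dio2 repeated the pattern, with 10.24 in placebo 3, 10.07 in placebo 5 and 7.59 in placebo 6. Placebo glands with later tumors ran from 6.91 (placebo 2) through a median of 7.85 to 8.54 (placebo 10). Tamoxifen glands had 7.88, 8.00 and 7.88 with later tumors, and 6.10 (tamoxifen 6), a median of 8.57 and 9.46 (tamoxifen 8) without. Within the tamoxifen glands without tumors, tamoxifen 3, 4, 5 and 8 had 8.57 or more and tamoxifen 6, 7 and 9 had 7.70 or less. Group means of Dio2 were 9.30 ± 1.48, 8.23 ± 1.20, 7.92 ± 0.07 and 7.77 ± 0.49 for placebo without tumor, tamoxifen without tumor, tamoxifen with tumor and placebo with tumor (SD, n = 3, 7, 3 and 7). The other probe sets of both genes had the same pattern. Their correlation with the main probe set over the 20 glands was 0.91 to 0.99 for the 4 others of Ppargc1a, and 0.98 and 0.92 for the 2 others of Dio2.

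Elovl3, an elongase of very long chain fatty acids that is induced by cold, lies on chromosome 19 at 46131897 to 46135694. In placebo glands with later tumors it ran from 9.97 (placebo 1) through a median of 10.32 to 11.93 (placebo 10). Those without had 11.24, 11.12 and 10.08. Tamoxifen glands had 10.70, 10.35 and 11.55 with later tumors, and 7.99 (tamoxifen 6), a median of 10.83 and 11.45 (tamoxifen 8) without. Tamoxifen 6 was the lowest gland by far, while placebo 2, the lowest gland for Ucp1, had 10.34 and was unremarkable. The group means lay close, at 10.87 ± 0.62 (tamoxifen with tumor), 10.82 ± 0.64 (placebo without tumor), 10.54 ± 0.66 (placebo with tumor) and 10.46 ± 1.17 (tamoxifen without tumor; SD, n = 3, 3, 7 and 7).

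Prdm16, a transcriptional regulator that sets the brown fat programme, lies on chromosome 4 at 154316122 to 154637360. It was near the overall median and ran from 6.73 (placebo 9) to 7.87 (tamoxifen 9). Placebo glands had a median of 6.97 with later tumors, and 7.36, 7.66 and 7.36 without. Tamoxifen glands had 7.0, 7.18 and 7.17 with later tumors and a median of 7.14 without. Its means were 7.46 ± 0.17 (placebo without tumor), 7.29 ± 0.36 (tamoxifen without tumor), 7.12 ± 0.10 (tamoxifen with tumor) and 7.03 ± 0.32 (placebo with tumor; SD, n = 3, 7, 3 and 7), in overlapping order. The other 3 probe sets of Prdm16 were above 6.85 in at most 1 gland and were not tested. Their r with the main probe set was 0.69, 0.50 and 0.09, lower than for Ppargc1a and Dio2. All values of Prdm16 here and below therefore rest on 1 probe set near the overall median.

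**Figure D1:**
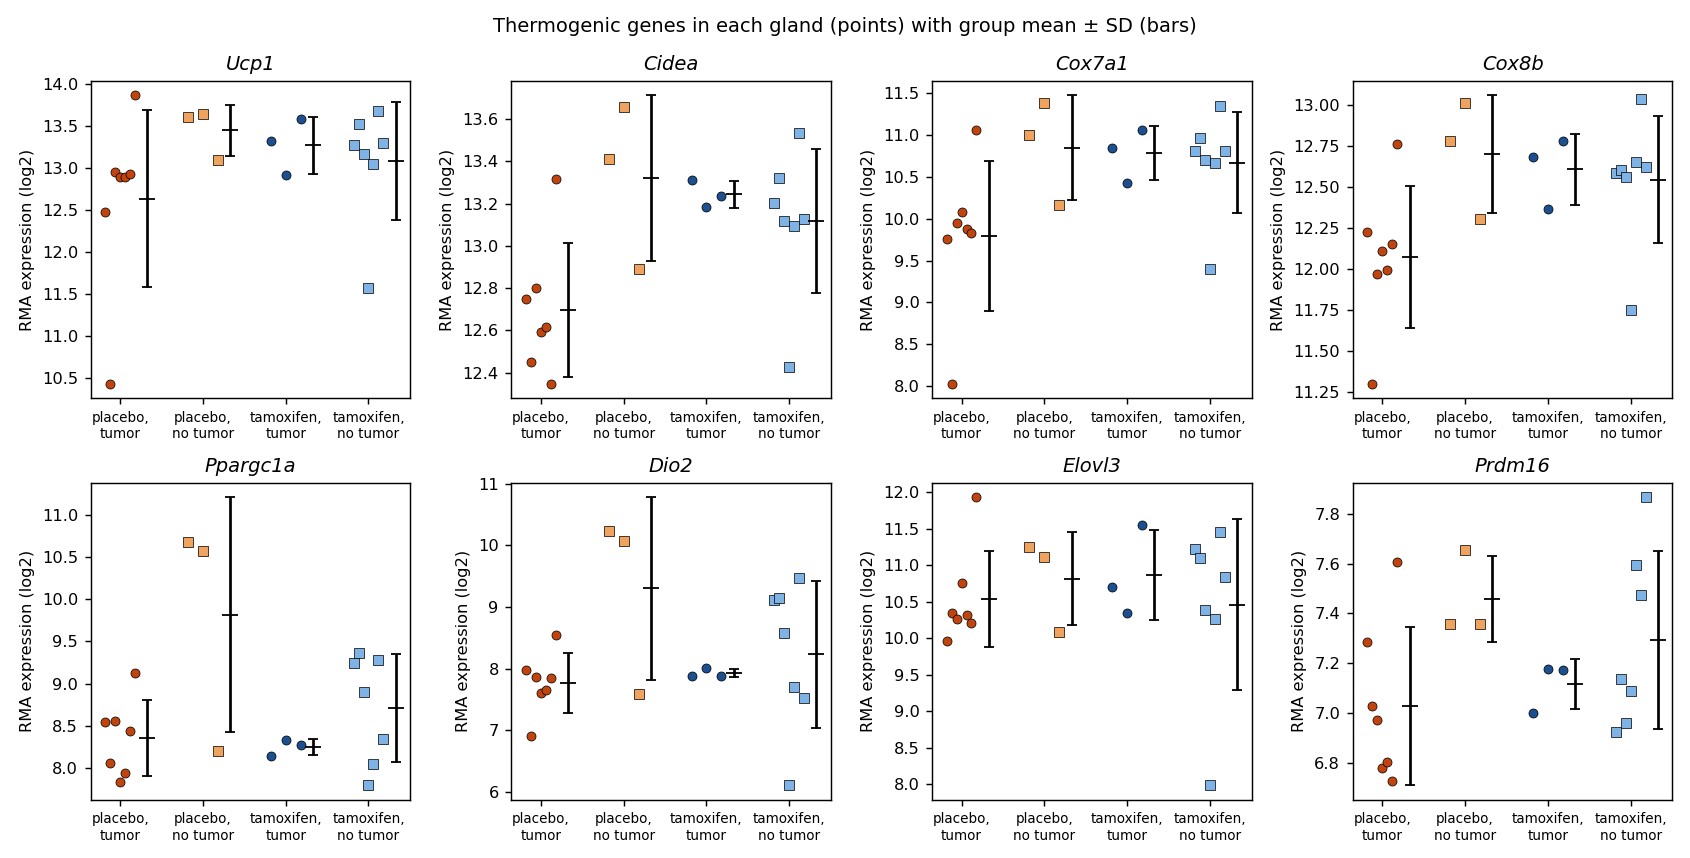
Log2 RMA expression of each thermogenic gene (1 panel per gene, each with its own vertical scale) in the 20 glands, by treatment and later tumor outcome; bars are group mean ± SD. Placebo 2 (10.43) and tamoxifen 6 (11.57) lie low for Ucp1, and placebo 3 and 5 lie high for Ppargc1a (10.67 and 10.56).

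Across the 20 glands most of the genes varied together. Ucp1, Cidea, Cox7a1 and Cox8b had Pearson r from 0.74 to 0.97 over their 6 pairs. Cox7a1 and Cox8b were closest (r = 0.97, Spearman rho = 0.95), then Ucp1 and Cox7a1 (r = 0.94, rho = 0.96), each with a permutation p of 1e-05, the smallest that 100000 draws can give, and an adjusted p of 8.67e-05 and, for rho, of 6.5e-05. Without placebo 2 and tamoxifen 6, which lie farthest from the median in Ucp1 and in Cox7a1, these r were 0.96 and 0.91. After each group's mean was taken off, the 6 pairs had r of 0.70 to 0.97, so glands of 1 group differed in the same way.
Ppargc1a and Dio2 were also close (r = 0.93, rho = 0.88, both permutation p 1e-05, adjusted 8.67e-05 and 6.5e-05). Without placebo 3 and 5 their r was 0.89, and from group means 0.92. These 2 genes were not separate from the 4 above. Dio2 had r of 0.78 with Cidea, 0.74 with Cox8b, 0.72 with Cox7a1 and 0.69 with Ucp1, where Ucp1 and Cidea had 0.74, and from group means Dio2 with Cidea had 0.84 and Ucp1 with Cidea 0.70. Ppargc1a had 0.70 with Cidea, 0.61 with Cox8b and 0.58 with Cox7a1, and its lowest value among the 4 was with Ucp1 (r = 0.51, permutation p = 0.0247, adjusted 0.0494; rho = 0.70, p = 0.00084, adjusted 0.00291; r = 0.61 without placebo 2 and tamoxifen 6). Prdm16 was the loosest of the 8, with r from 0.28 (Dio2) to 0.59 (Cidea). In all, 23 of the 28 pairs passed an adjusted permutation p of 0.05 for r, with adjustment over the 52 correlations computed here, and the 5 that did not all included Prdm16. The glands shared their arrays between genes, and the labels name no array batch. Among animals numbered 1 to 5 and those numbered 6 to 10, r was 0.98 and 0.88 for Ucp1 with Cox7a1, 0.98 and 0.99 for Cox7a1 with Cox8b, and 0.96 and 0.85 for Ppargc1a with Dio2 (n = 10 each).

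**Figure D2:**
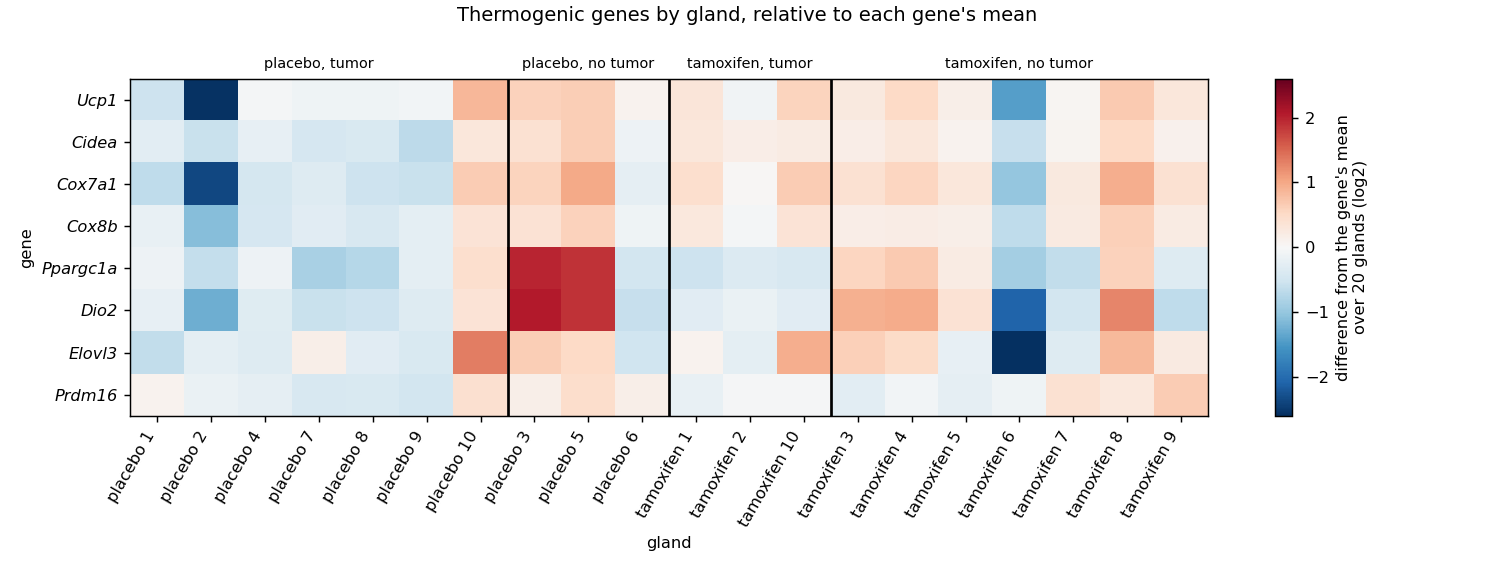
Each gland's log2 difference from the mean of 20 glands, for each gene (rows) and gland (columns, ordered by group). Placebo 2 and tamoxifen 6 are low across Ucp1, Cox7a1 and Cox8b, placebo 3 and 5 are high in Ppargc1a and Dio2, and tamoxifen 6 is low in every gene except Prdm16.

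**Figure D3:**
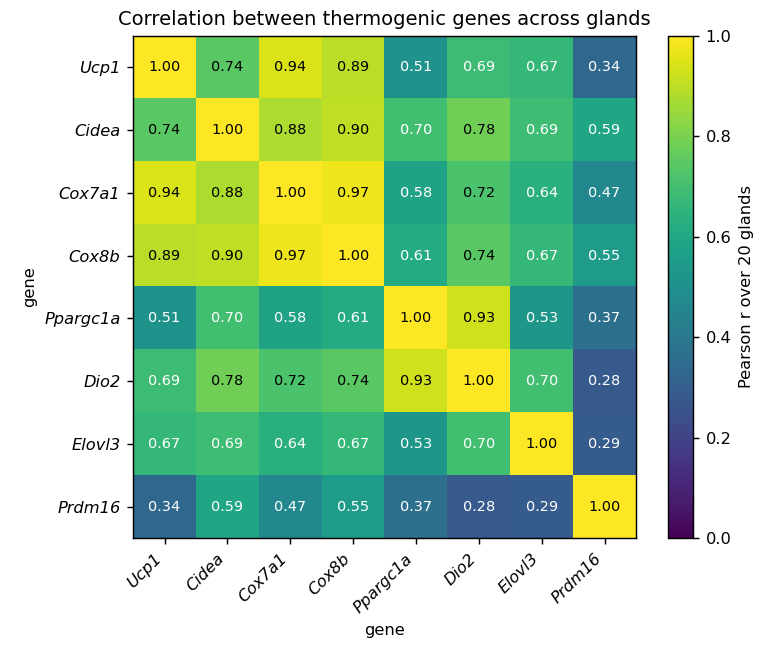
Pearson r between each 2 of the 8 genes over the 20 glands, as colour and number. Ucp1, Cidea, Cox7a1 and Cox8b have r of 0.74 to 0.97 among them, Ppargc1a and Dio2 have 0.93, and Prdm16 has the lowest values.

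Single glands kept similar ranks for some genes and not for others. Placebo 2 ranked last of 20 for Ucp1, Cox7a1 and Cox8b, 19 for Dio2, 18 for Cidea and 16 for Ppargc1a, and 13 for Elovl3 and for Prdm16. Tamoxifen 10 ranked 5 for Ucp1, 3 for Cox7a1 and 2 for Elovl3, but 13 for Ppargc1a. Tamoxifen 6 ranked 19 or 20 for every gene except Prdm16, where it ranked 12. Tamoxifen 8 ranked between 1 and 5 for all 8 genes.

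**Figure D4:**
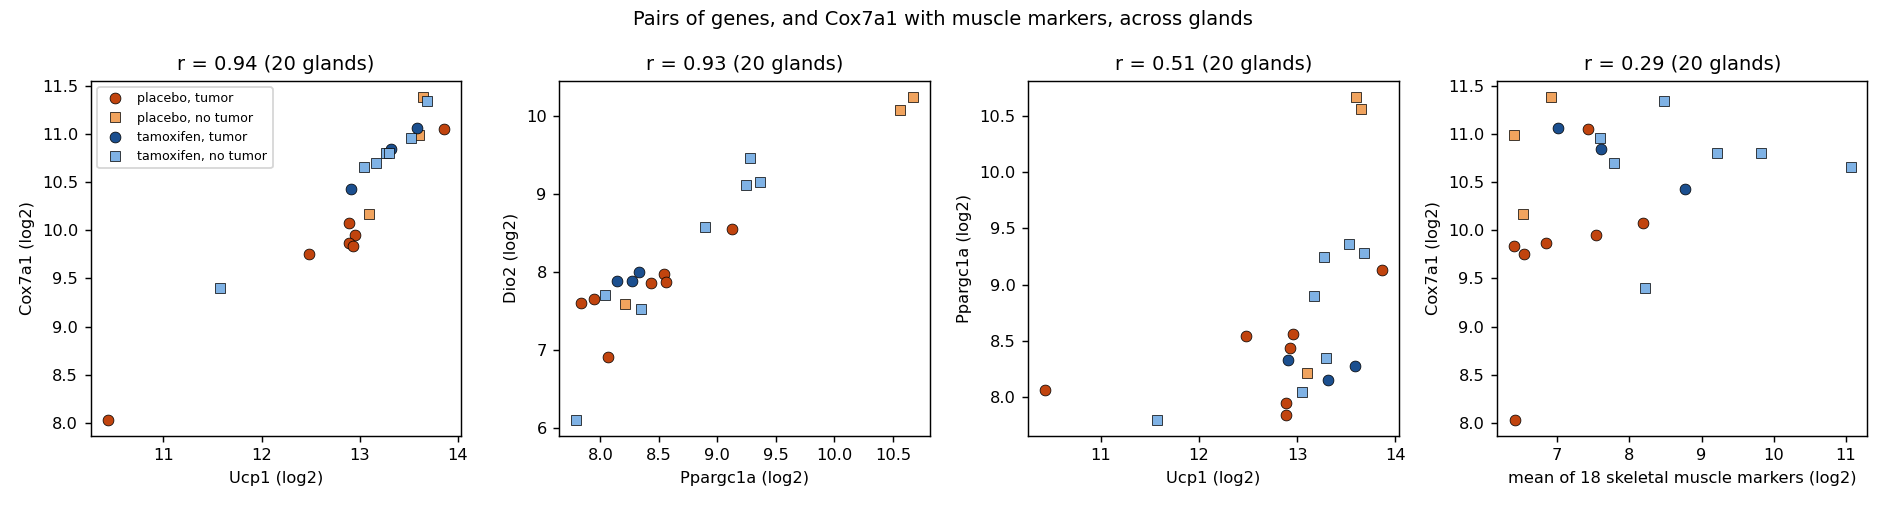
Log2 expression in the 20 glands of Ucp1 with Cox7a1, Ppargc1a with Dio2, Ucp1 with Ppargc1a, and Cox7a1 against the mean of 18 skeletal muscle markers; each point is a gland. The first 2 panels are close to a line (r = 0.94 and 0.93), the third is loose (0.51), and the last shows no clear relation (0.29).

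The genes whose pattern was most like each thermogenic gene were ranked by Pearson r over the 20 glands among 12498 other genes tested, as a description with no p. For Ucp1 they were Fabp3 (r = 0.95), a carrier of fatty acids, then Cox7a1, Cox8b, Acaa2 (0.88), a thiolase of fatty acid oxidation, and Letmd1 (0.87), a mitochondrial membrane protein. Fabp3 ran from 7.87 in placebo 2 to 12.52 in placebo 3. Cidea was nearest to Ogdh (0.97), a subunit of the oxoglutarate dehydrogenase complex, Hadhb (0.96), Suclg1 (0.95), Acadl (0.95) and Sucla2 (0.95). Cox7a1 was nearest to Cox8b, Acaa2 (0.96), Ucp1, Fabp3 (0.94) and Acadl (0.94), and Cox8b to Cox7a1, Acaa2 (0.96), Sucla2 (0.96), Acadl (0.96) and Ech1 (0.95).
Ppargc1a had other neighbours, namely Dio2, Nfil3 (0.91), a transcription factor with a daily rhythm, Noct (0.89), a phosphatase with a daily rhythm in many tissues, Ccng2 (0.87) and Apold1 (0.86). Noct had 10.68 in placebo 3 and 10.41 in placebo 5, and tamoxifen 8 came next at 10.00. Dio2 was nearest to Ppargc1a, Noct (0.87), Nfil3 (0.85), Adcy3 (0.85), an adenylyl cyclase, and Tmem37 (0.85). Elovl3 was nearest to Pfkl (0.94), a phosphofructokinase of glycolysis, Pgam1 (0.88), Acsl5 (0.87), Bsg (0.865) and Tufm (0.86). Prdm16 was nearest to Tm2d1 (0.91), Ube2w (0.88), Ubap1 (0.88), Ankrd40 (0.87) and Mfn2 (0.87), a mitofusin.

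The study's stated comparison set the 10 glands of mice that later had a tumor against the 10 that did not. The tumor group held 7 placebo and 3 tamoxifen glands and the other group 3 and 7, and the fit had no treatment term. Outcome and treatment are therefore partly confounded in it. With limma, 0 of the 8 thermogenic genes passed an adjusted p of 0.05, where 29 of 12499 genes did (0.232%). At an unadjusted p under 0.05 there were 4 of 8, all lower in the tumor group, against 9.69% of all genes lower. Prdm16 differed by -0.29 (SE 0.12, adjusted p = 0.246), Ppargc1a by -0.72 (SE 0.31, adjusted p = 0.255), Cidea by -0.32 (SE 0.15, adjusted p = 0.298) and Cox8b by -0.36 (SE 0.17, adjusted p = 0.302), all as log2 tumor minus no tumor. Cox7a1 had -0.63 (adjusted p = 0.318), Dio2 -0.74 (0.364), Ucp1 -0.37 (0.604) and Elovl3 0.07 (0.941), and the groups overlapped for all 8. The median difference of the 8 was -0.36, beside -0.01 over all genes tested. With treatment as a term, limma called 0 of all genes.

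Tamoxifen and placebo glands were compared next, 10 against 10. Later tumors followed in 3 of the tamoxifen mice and 7 of the placebo mice, and the fit had no outcome term, so treatment and outcome are again partly confounded. No thermogenic gene passed, with 0 of 8 called where limma called 0.008% of all genes, and at an unadjusted p under 0.05 the count was also 0 of 8 (13.9% of all genes). Cox7a1 was higher by 0.59 after tamoxifen (SE 0.31, 95% interval -0.07 to 1.24, adjusted p = 0.409), and 9 of 10 tamoxifen glands were above the placebo median. Cox8b differed by 0.30 (-0.06 to 0.67), Cidea by 0.27 (-0.05 to 0.59) and Ucp1 by 0.26 (-0.43 to 0.95). Prdm16, Elovl3, Dio2 and Ppargc1a had 0.08, -0.04, -0.09 and -0.22, each with an interval that spanned 0. Such an interval does not show that the groups were alike, and that of Dio2 ran from -0.99 to 0.81.

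Among placebo mice the 7 glands with later tumors were set against the 3 without, in a model of the 4 groups with a shared spread. The thermogenic genes were all lower with later tumors, and none passed, where limma called 1 gene of 12499 (0.008%). At an unadjusted p under 0.05 there were 6 of 8 lower, against 7.83% of all genes. Ppargc1a differed by -1.46 (SE 0.44, 2.75-fold lower, adjusted p = 0.179) and Dio2 by -1.53 (SE 0.60, 2.89-fold lower, adjusted p = 0.269). Cox7a1 differed by -1.05 (SE 0.45, adjusted p = 0.301), Cox8b by -0.63 (SE 0.25, adjusted p = 0.269), Cidea by -0.62 (SE 0.20, adjusted p = 0.205) and Prdm16 by -0.43 (SE 0.19, adjusted p = 0.327). Ucp1 had -0.81 (adjusted p = 0.468) and Elovl3 -0.28 (0.852). No gene's groups were separate, since placebo 10 with a tumor lay above placebo 6 without one each time, while 4.66% of all genes had groups that did not overlap.

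These placebo differences were larger among the animals numbered 1 to 5 for every gene but Prdm16, which differed little between the runs. Among those numbered 1 to 5, the 3 glands with tumors less the 2 without gave -2.23 for Ppargc1a, -2.57 for Dio2, -1.94 for Cox7a1 and -1.67 for Ucp1. Among those numbered 6 to 10, with 4 glands against placebo 6 alone, the values were 0.13, 0.32, 0.04 and 0.05. Cidea (-0.87 and -0.17), Cox8b (-1.06 and -0.05) and Elovl3 (-0.99 and 0.72) also differed between the runs of numbers, and Prdm16 had -0.41 and -0.38. The second run rests on 1 gland without a tumor. The labels give the numbers no meaning beyond the replicate, so what the 2 runs stand for was not tested. Without placebo 6, Ppargc1a reached -2.26 and passed (adjusted p = 0.0164; over all single glands left out it ran from 0.0164 to 0.528), with 2 glands left in that group. Leaving out placebo 2 and tamoxifen 6 moved Ucp1 to -0.45, and leaving out placebo 7, 8 and 9 moved Ppargc1a to -1.24.

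**Figure D5:**
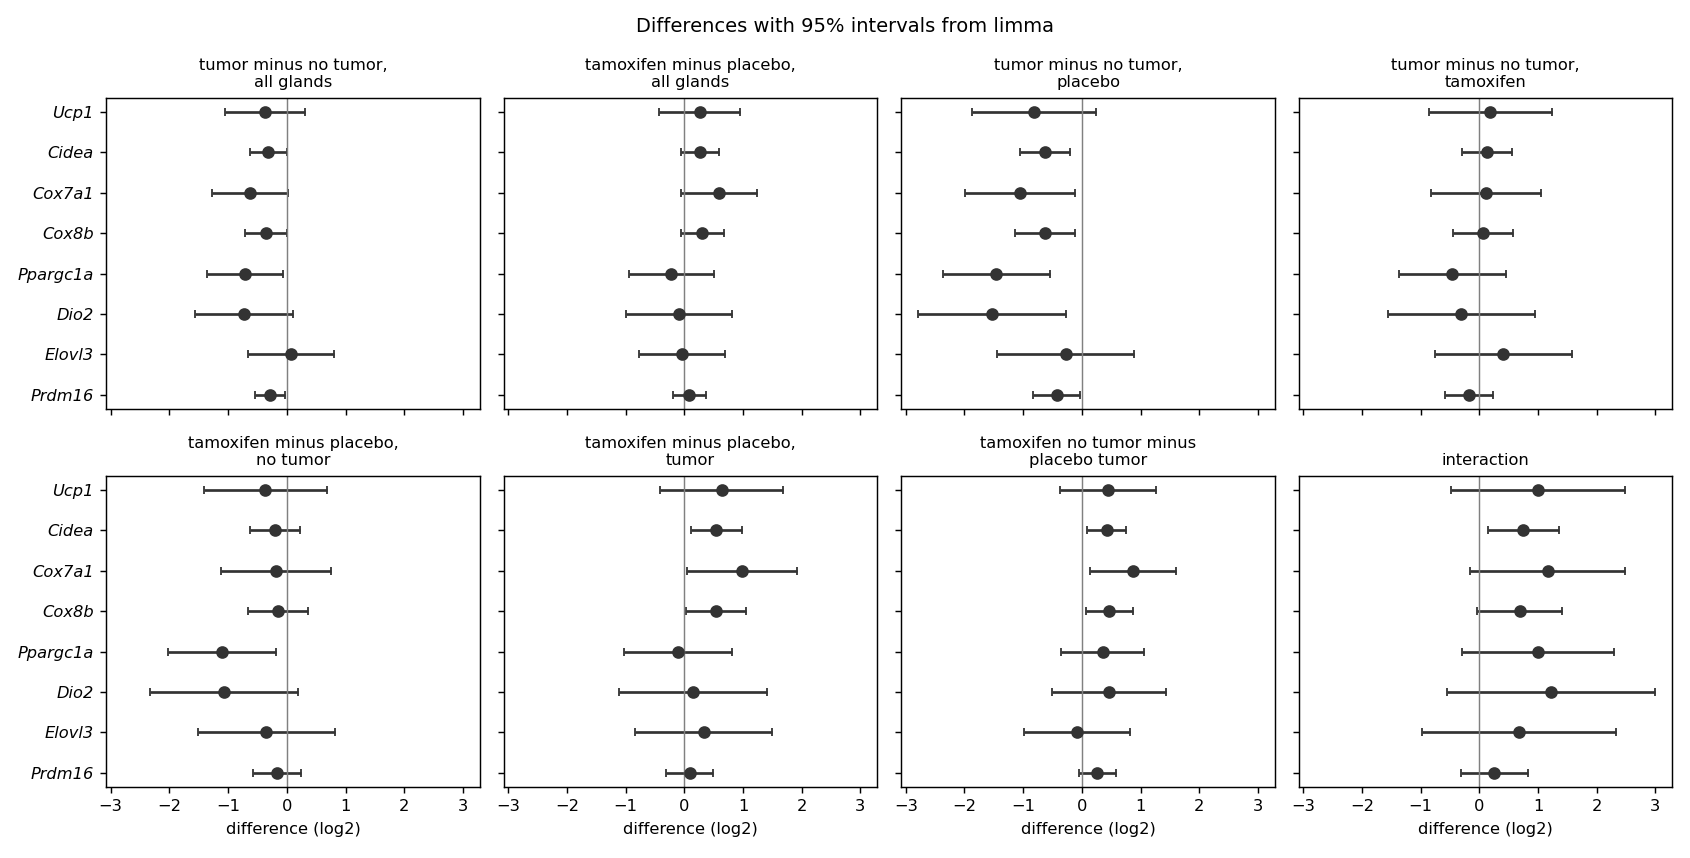
Log2 differences (points) with 95% intervals from limma (bars) for the 8 genes in each of the 8 comparisons; the vertical line is 0. In the placebo outcome panel all 8 points are below 0, from -0.28 for Elovl3 to -1.53 for Dio2, and no gene passed the adjusted test in any panel.

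Among tamoxifen mice, the 3 glands with later tumors were compared with the 7 without. No thermogenic gene passed (0 of 8 called by limma, 0.008% of all genes), and none had an unadjusted p under 0.05 (2.1% of all genes). Ppargc1a differed by -0.46 (-1.38 to 0.45), Dio2 by -0.31 (-1.57 to 0.95) and Ucp1 by 0.19 (-0.86 to 1.24). Cox7a1 had 0.11, Cidea 0.13, Cox8b 0.06, Elovl3 0.41 and Prdm16 -0.18. The test of whether the outcome difference itself depended on treatment called 0 of 8 genes and 0% of all genes. All 8 differences of differences, tamoxifen less placebo, were above 0, from 0.25 for Prdm16 to 1.22 for Dio2 (SE 0.85), and their adjusted p was at least 0.938. Cidea alone had an unadjusted p under 0.05 (0.75, SE 0.29, adjusted p = 0.938 with limma), as 1.82% of all genes had in that direction.

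Treatment was also compared within each outcome. Among glands without tumors, tamoxifen less placebo was below 0 for all 8 genes, from -0.15 for Cox8b to -1.10 for Ppargc1a (SE 0.44, adjusted p = 0.747). None passed with limma (0.064% of all genes called), and 1 of 8 had an unadjusted p under 0.05, against 2.56% of all genes lower. Among glands with later tumors, 7 of 8 were above 0, again with none passing (0% of all genes) and 3 at an unadjusted p under 0.05, against 2.6% of all genes higher. Those 3 were Cidea (0.55, SE 0.20), Cox7a1 (0.98, SE 0.45) and Cox8b (0.53, SE 0.25), each with an adjusted p of 0.703. All 3 tamoxifen glands with tumors lay above the median of the placebo glands with tumors for each of the 7 genes other than Ppargc1a. These comparisons share glands with those above and are not independent of them.

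Last, the 7 tamoxifen glands without tumors were set against the 7 placebo glands with tumors. Here limma called 579 of 12499 genes (4.63%), but 0 of the 8 thermogenic genes. Of the 8, 3 had an unadjusted p under 0.05 and a higher level in the tamoxifen glands, against 11% of all genes. Cidea differed by 0.42 (SE 0.16, adjusted p = 0.132), Cox7a1 by 0.87 (SE 0.35, adjusted p = 0.160) and Cox8b by 0.47 (SE 0.19, adjusted p = 0.166). For each of them 6 of 7 tamoxifen glands, all but tamoxifen 6, lay above the placebo median. Dio2 had 0.46, Ucp1 0.45, Ppargc1a 0.35, Prdm16 0.26 and Elovl3 -0.08, with adjusted p from 0.333 to 0.942. Cidea passed when tamoxifen 6 was left out (0.54, adjusted p = 0.0441) or placebo 10 was (0.53, adjusted p = 0.0395), and its adjusted p over all single glands left out ran from 0.0395 to 0.231.

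Other genes of brown fat were read from lists chosen for this tissue. Of the upstream list, regulators and adrenergic input, 17 of 25 genes were tested, and limma called 0 in any of the 8 comparisons (in the placebo outcome comparison, 6 lower and 1 higher at an unadjusted p under 0.05, against 7.83% and 6.29% of all genes). Ppara, a nuclear receptor of fatty acid oxidation, had -0.81 in the placebo outcome comparison (SE 0.26, adjusted p = 0.197), and Nr4a1, an orphan receptor induced by cyclic AMP, had -1.14 (SE 0.40, adjusted p = 0.224). Pparg, the master regulator of fat cells, had -0.43 there. Zic1 and Lhx8, markers of classical brown fat, were above 6.85 in no gland, at 4.10 to 4.32 and 5.10 to 5.98, as were Bmp8b, Fgf21 and Thrb. Of 5 beige fat markers tested limma called 0 in any comparison, and 2 of them, Tbx1 and Tnfrsf9, had an unadjusted p under 0.05 in 3 comparisons. They were lower in the outcome comparison (-0.20 and -0.12), against 9.69% of all genes lower at that unadjusted p. After tamoxifen they were higher than in placebo (0.18 and 0.13), against 6.95% of all genes higher. Both were also higher in the 7-against-7 comparison (0.27 and 0.17, adjusted p = 0.0970 and 0.0522 with limma), against 11% of all genes higher. Tbx1 ran from 6.48 to 7.18. In the placebo outcome comparison 3 of the 5 were below 0 and 2 above, from -0.28 to 0.62. Among glands without tumors all 5 were above 0 for tamoxifen less placebo, but most were close to it, with a median of 0.06 (0.02 to 0.51). Of these 5, 0 had an unadjusted p under 0.05, against 2.7% of all genes higher. All 8 thermogenic genes were below 0 there, with none passing, so the 2 directions cannot be read as opposite changes.

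Enzymes that burn fuel in brown fat leaned the same way as the thermogenic genes. In the placebo outcome comparison 19 of 23 were lower with later tumors, with a median of -0.46, and 13 were lower at an unadjusted p under 0.05 (7.83% of all genes), but 0 passed. Acot2, a mitochondrial thioesterase, had -0.39 (SE 0.11, adjusted p = 0.175) and Acadm, a dehydrogenase of medium-chain fatty acids, -0.44 (SE 0.13, adjusted p = 0.185). Fabp3 had -1.50 (SE 0.63, adjusted p = 0.294). In the 7-against-7 comparison 1 of the 23 rose, Acot2 (0.31, SE 0.09, adjusted p = 0.0467 with limma), and Otop1 had 0.81 (SE 0.26, adjusted p = 0.0758). There 2.23% of all genes were called higher, and 1 called gene says little about the list.
Respiratory chain subunits found in all cells differed by less. All 20 tested were lower with later tumors in placebo mice, from -0.33 to -0.08 with a median of -0.20. Of the 20, 0 passed, and 2 had an unadjusted p under 0.05, beside 7.83% of all genes lower. All 20 were higher after tamoxifen than placebo, with a median of 0.11. Again 0 passed, and 0 had an unadjusted p under 0.05, beside 6.95% of all genes higher.

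Relatives of the thermogenic genes allow the forms to be set side by side as differences. In the placebo outcome comparison, Cox7a2 and Cox8a, the forms of those oxidase subunits used in most tissues, had -0.11 and -0.09, where Cox7a1 and Cox8b had -1.05 and -0.63. Over the glands Cox7a2 ran from 13.01 to 13.52 and Cox8a from 12.95 to 13.49. Ucp3, the uncoupling protein relative of muscle and brown fat, had -0.44 (SE 0.16, adjusted p = 0.250), and Cidec, the lipid droplet protein of white fat, had -0.38. Ppargc1b, the sister coactivator of Ppargc1a, had -0.49. Ucp2 was not analysed here. Of 16 relatives tested, 1 was called in any of these comparisons, Cox6a2, the muscle form of another oxidase subunit. It rose by 0.40 in the 7-against-7 comparison (SE 0.10, adjusted p = 0.0288 with limma), where 2.23% of all genes were called higher. Here too, 1 called gene says little about the list.

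Muscle, epithelium and white fat in the glands were read beside these values. Skeletal muscle markers varied most, since the mean of the 18 ran from 6.41 to 6.91 in placebo glands without tumors, 6.40 to 8.19 in placebo glands with tumors, 7.02 to 8.77 in tamoxifen glands with tumors and 7.60 to 11.06 in tamoxifen glands without. In the 7-against-7 comparison 10 of 17 rose (2.23% of all genes), among them Acta1 (3.26, SE 0.71, adjusted p = 0.0141) and Tnnc2 (3.30, SE 0.75, adjusted p = 0.0194), and Ckm (2.12, SE 0.55, adjusted p = 0.0343). After tamoxifen against placebo, 17 of 17 were higher at an unadjusted p under 0.05 (6.95% of all genes), though 0 passed. Cox7a1 and Cox8b are also muscle genes, and their r with the muscle mean was 0.29 and 0.25 (rho 0.20 and 0.17, permutation p for r 0.209 and 0.277, adjusted 0.302 and 0.351; for rho 0.399 and 0.468, adjusted 0.532 and 0.595). Those r were 0.29 and 0.19 without tamoxifen 7 and 9, which lay farthest from the median of the muscle mean. Of the 8 genes, 0 passed an adjusted permutation p of 0.05 against the muscle mean, with r from -0.21 to 0.33. Of 10 slow and oxidative muscle genes, Myh7, Tnni1, Tnnt1 and Myl2 were above 6.85 in no gland, and 4 others were above it in every gland. Those 4 included Fabp3 and Cox6a2, which were also named above among the fuel enzymes and the relatives. Of 4 tested, 1 was called higher in the 7-against-7 comparison (2.23% of all genes), and 1 called gene says little about the list.

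Epithelial markers were higher with later tumors in placebo mice for 12 of 12 genes (median 1.11), opposite to the thermogenic genes. Of the 12, 0 passed and 12 had an unadjusted p under 0.05, against 6.29% of all genes higher. Their mean ran from 8.23 to 9.14 in placebo glands without tumors and from 9.37 to 10.62 in those with, and from 8.35 to 9.42 and 9.06 to 9.26 in tamoxifen glands without and with. In the outcome comparison Elf5, a transcription factor of the alveolar lineage, rose (1.71, SE 0.36, adjusted p = 0.0456), and in the 7-against-7 comparison 8 of 12 fell (2.4% of all genes). Against the epithelial mean, Prdm16 had r = -0.56 (rho = -0.53, permutation p 0.00976 and 0.0169, adjusted 0.0242 and 0.0367) and Cidea r = -0.54 (rho = -0.48, permutation p 0.0130 and 0.0319, adjusted 0.0283 and 0.0593). These were -0.38 and -0.43 without placebo 7 and 8, and -0.37 and -0.15 from group means, and the other 6 genes did not pass for r. The part of epithelial share in the thermogenic differences was not tested beyond these values and the fits with that mean as a term, in which 0 of the 8 passed. With that mean as a term the placebo outcome difference of Prdm16 went from -0.43 to -0.15, of Ppargc1a from -1.46 to -1.06 and of Cidea from -0.62 to -0.50. That of Ucp1 went from -0.81 to -1.16, of Elovl3 from -0.28 to -0.61 and of Cox7a1 from -1.05 to -1.21, and Dio2 and Cox8b had -1.58 and -0.67.

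White and general adipocyte markers varied to different degrees. Adipoq, an adipokine of all fat cells, ran from 13.79 to 14.21, while Lep, the satiety hormone leptin, ran from 7.80 (placebo 2) to 11.48 (placebo 6), 12.8-fold, and Agt, angiotensinogen, from 7.39 to 9.78. The mean of 16 such markers ran from 12.69 to 12.84 in placebo glands without tumors and 12.19 to 12.74 in those with, and from 12.46 to 12.99 and 12.55 to 12.71 in tamoxifen glands without and with. Against it Prdm16 had r = 0.69 (rho = 0.53, permutation p 0.00068 and 0.0184, adjusted 0.00253 and 0.0369; r = 0.61 without placebo 7 and 8). The other 7 genes had r from -0.08 to 0.40 and did not pass. Agt was the 1 of 16 adipocyte markers called in the 7-against-7 comparison (0.94, SE 0.20, adjusted p = 0.0121 with limma). There 2.23% of all genes were called higher, and 1 called gene says little about the list. Of 6 lymphocyte markers 3 rose in that comparison (2.23% of all genes), Cd3e among them (0.46, SE 0.08, adjusted p = 0.00506 with limma). Of 6 endothelial markers limma called 0 in any comparison. At an unadjusted p under 0.05, 3 were lower in the placebo outcome comparison, against 7.83% of all genes lower. After tamoxifen against placebo 3 were lower (6.96% of all genes), and in the same comparison among glands without tumors 5 were (2.56%).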

How the data were processed

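RNA from 20 mammary glands, 1 per animal, was hybridised to 20 Affymetrix mouse arrays. The labels call the glands biological replicates. The authors deposited log2 expression values computed with RMA, per the submitters' processing notes, for 45101 probe sets, and array medians lay between 6.82 and 6.89. RMA equalises the distribution of values between arrays, so a change shared by most genes would not appear. No genome build is given in the sources used here. Gene symbols came from the platform table, which gave 1 symbol to 34958 probe sets, several to 932 and none to 9211, and only the first kind was used. Gene positions and promoter windows came from RefSeq (GRCm38.p6).

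Groups followed the labels for treatment and later outcome. For each gene the probe set with the highest mean was kept, and genes above the overall median of 6.85 in at least 3 arrays were tested with limma 3.58.1 (R 4.3.3) by lmFit and eBayes, with Benjamini-Hochberg adjustment over 12499 genes and a threshold of 0.05. Outcome and treatment were each fitted over 10 against 10 glands, and the other 6 comparisons in 1 model of the 4 groups. The fits were tested on simulated data for 12499 genes, with changed genes drawn at random, each with its own spread. Changes of 1 on the log2 scale were called in 93% of the changed genes for outcome in placebo mice. In the 7-against-7 comparison 97% were called. The thermogenic genes varied more than most genes tested, so these rates cannot be read as the rates for them. In the placebo outcome comparison the SE was 0.44 for Ppargc1a and 0.60 for Dio2. Correlations used 100000 permutations.

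The members and lists were chosen with earlier results of these data known. In the text all 8 genes are named in every comparison; from each other brown fat list the genes that passed, or those with the smallest p, are named for the placebo outcome and 7-against-7 comparisons, with a set of control genes; and the 5 genes nearest to each member are named. Alternatives changed the centring, the filter, the choice of probe sets, array weights, the replicate block, marker means as terms and the glands included. After the values were seen, fits without placebo 7, 8 and 9, without placebo 2 and tamoxifen 6, and with the runs of animal numbers as a term were added.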

Additional observations from a re-analysis of the deposited data

Results flagged for a closer look

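Within the groups of 7 glands, 8 of 16 combinations of gene and group held a gland far from the rest by Dixon's criterion, which chance meets in about 1 of 20. In placebo glands with later tumors, placebo 2 was low for Ucp1 (10.43, next 12.48) and Cox7a1 (8.033, next 9.753), and placebo 10 was high for Elovl3 (11.93, next 10.76). Tamoxifen 6 was low among tamoxifen glands without tumors for Ucp1 (11.57, next 13.05), Cidea (12.43, next 13.1), Cox7a1 (9.397, next 10.66), Cox8b (11.75, next 12.56) and Elovl3 (7.986, next 10.26). The 8 are not independent, since the genes were measured on the same arrays and vary together.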

How the results depend on the processing

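The 8 genes gave 64 differences, each refitted under the alternatives, 2248 values in all. Of these, 2176 kept their direction and their side of the threshold, 12 passed only under the alternative and 60 reversed, none with a size above 0.41 in the fit reported. The labels do not say whether the animals' numbers pair glands, so the block was fitted only as an alternative. Correlations of same-numbered deviations ran from -0.10 to 0.59 between treatments and from -0.22 to 0.32 between outcomes. Of these, 4 of 10 and 1 of 10 exceeded 0.1. The same-numbered gland was the best match for 3 of 10 and 1 of 10. Whether glands with the same number share a source of variation was not tested further. With the replicate block, genes called became 235 for treatment, 602 for outcome in placebo, 5 for outcome in tamoxifen, 3 for treatment without tumor, 2 for the interaction and 1647 for tamoxifen without tumor against placebo with tumor (the 7-against-7 comparison). Under that block 5 members were called in the placebo outcome comparison, Ppargc1a (-1.74, adjusted p = 0.0375), Dio2 (-2.09, 0.0465), Cidea (-1.08, 0.0233), Cox8b (-1.07, 0.0322) and Prdm16 (-1.17, 0.0263). In the 7-against-7 comparison 4 were, Cidea (0.68), Cox7a1 (1.01), Cox8b (0.67) and Prdm16 (0.70). The block also reversed Cidea (-0.28), Cox8b (-0.16) and Elovl3 (-0.40) for outcome in tamoxifen, Prdm16 (-0.19) for treatment with tumor and Elovl3 (0.53) in the 7-against-7 comparison.

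Genes called for outcome (29) became 11 with arrays centred on their medians, 14 with no filter, 0 with the muscle or adipocyte mean or treatment as a term, 1 with the epithelial mean, 45 with runs of numbers as a term, 8 without placebo 7, 8 and 9, and 3 without placebo 2 and tamoxifen 6. For treatment (1) they became 2 with no filter and 0 with the mean of probe sets, every probe set, each marker mean, outcome as a term, or either set of glands left out. For outcome in placebo (1) they became 2 with the mean of probe sets, 0 with the epithelial mean or without placebo 7, 8 and 9, and 3 without placebo 2 and tamoxifen 6. For outcome in tamoxifen (1) they became 13 with array weights, 2 with the epithelial mean, and 0 with the muscle mean or either set of glands left out. For treatment without tumor (8) they became 3 with a filter of 10 arrays, 18 with array weights, 1 and 14 with the muscle and adipocyte means, 14 without placebo 7, 8 and 9, and 13 without placebo 2 and tamoxifen 6. Array weights gave 2 for treatment with tumor and 1 for the interaction (0 each), and the adipocyte mean 1 for the interaction. The 7-against-7 count (579) became 895 with every probe set, 6 with the epithelial mean, 141 without placebo 7, 8 and 9, and 330 without placebo 2 and tamoxifen 6. Except where the number of genes or glands changed, the cause was not tested.

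With 1 gland left out, genes called ran from 1 (without placebo 5, for example) to 118 (without tamoxifen 1) for outcome, 0 to 110 (without placebo 6) for treatment, 0 to 60 (without placebo 10) for outcome in placebo, 0 to 7 for outcome in tamoxifen, 2 to 17 for treatment without tumor, 0 to 1 for treatment with tumor, 0 to 3 for the interaction and 295 to 846 in the 7-against-7 comparison. Members called ran from 0 to 1 in the placebo outcome and 7-against-7 comparisons.

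Other reversals were small. For outcome, Elovl3 had -0.0016 with the epithelial mean and -0.18 without placebo 2 and tamoxifen 6. For treatment, Elovl3 had 0.042 with array weights, 0.017 and 0.0049 with the epithelial and adipocyte means and 0.22 without placebo 2 and tamoxifen 6. Prdm16 had -0.01 with weights, -0.10, -0.11 and -0.065 with the muscle, epithelial and adipocyte means, -0.038 with outcome as a term and -0.084 without placebo 7, 8 and 9, and the muscle mean gave Ppargc1a 0.012 and Dio2 0.11. Without placebo 2 and tamoxifen 6, outcome in tamoxifen was -0.063 for Ucp1, -0.10 for Cox7a1, -0.069 for Cox8b and -0.0054 for Elovl3, and treatment without tumor was 0.032 for Cox7a1 and 0.060 for Elovl3. For treatment with tumor, Prdm16 had -0.012, -0.092 and -0.032 with the 3 marker means and -0.11 without placebo 7, 8 and 9, Ppargc1a 0.0056 with the muscle mean, and Dio2 -0.014 with runs of numbers. In the 7-against-7 comparison, Elovl3 had 0.23 and 0.03 with the epithelial and adipocyte means and 0.30 without placebo 2 and tamoxifen 6, and Ppargc1a -0.0060 with the epithelial mean.

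With 1 gland left out, signs turned for outcome in Elovl3 (-0.22 to 0.17), for treatment in Ucp1 (-0.01 to 0.43), Dio2 (-0.24 to 0.13) and Elovl3 (-0.15 to 0.25), and for outcome in tamoxifen in Ucp1 (-0.063 to 0.37), Cox7a1 (-0.10 to 0.29), Cox8b (-0.069 to 0.19) and Elovl3 (-0.01 to 0.67). They also turned for treatment without tumor in Cox7a1 (-0.52 to 0.089), Cox8b (-0.35 to 0.00024) and Elovl3 (-0.72 to 0.060), for treatment with tumor in Ppargc1a (-0.20 to 0.020) and Elovl3 (-0.013 to 0.59), and in the 7-against-7 comparison in Elovl3 (-0.24 to 0.34). With the mean of all probe sets Prdm16 did not reach the filter and was not tested. Groups of 3 glands limit the precision within treatments, and Prdm16 and Dio2 lie closest to the overall median, where background weighs most.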
